A study of Mus musculus with 6 samples.

Results

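Long intergenic noncoding RNAs (lincRNAs) are transcripts of genes that lie between protein-coding genes and carry no long reading frame. The 101 lincRNAs described here are all the genes typed lincRNA in the deposited count table that had at least 20 counts in each of 6 mouse liver libraries; they were thus selected on the counts themselves, and that they are measurable is no result. They are 101 of 5559 genes of that type and of 54532 genes in the table, and 1448 lincRNA genes had a count in any library. The livers came from male mice that were put on a high-fat diet at 8 weeks of age and kept on it for 8 weeks. Of the libraries, 3 were labelled wild type (WT, replicates 1 to 3) and 3 Trem2-deficient (KO, replicates 4 to 6), the WT mice being littermates of the KO mice. All 6 libraries share the diet, and no group on another diet was analysed here. The comparison asks which lincRNAs differ in liver on this diet when the mouse lacks Trem2, a receptor that macrophages use to sense lipids. The sources used here do not state which part of Trem2 was deleted. Nor do the labels state that each library came from a separate mouse, so p-values may measure only the spread between these samples.

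LincRNAs are transcribed, capped, spliced and polyadenylated much like messenger RNAs, but most are less abundant and many stay in the nucleus. Some scaffold nuclear bodies, some carry small nucleolar RNAs (snoRNAs) or microRNAs inside their transcripts, some act on the genes beside them, and a few encode small peptides despite their annotation. Most of the members have no described role, and such genes are given below by their values alone.

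The start regions of 6 members are shown because these had the smallest p-values between the labelled groups, 3 in each direction. Each runs 5′ to 3′ on the strand of the gene, from 250 bases before the start site to 50 bases after it, in RefSeq's GRCm38.p6 assembly. Capitals mark matches, on either strand, to 7 motifs: TATAAA (the TATA box), CCAAT (the NF-Y motif), GGGCGG (the GC box), AGGTCA (a nuclear receptor half-site), TTCNNNGAA (the STAT motif), CACGTG (the E-box) and TGACGTCA (the cyclic AMP response element). The first 3 belong to lincRNAs with higher KO-labelled values, the other 3 to lincRNAs that were lower. In that order they lie at chr5:91283027-91283326 (minus strand), chr15:32244613-32244912 (minus), chr10:93083986-93084285 (plus), chr6:129238433-129238732 (minus), chr13:9076325-9076624 (minus) and chr16:24090016-24090315 (minus).
Gm19619: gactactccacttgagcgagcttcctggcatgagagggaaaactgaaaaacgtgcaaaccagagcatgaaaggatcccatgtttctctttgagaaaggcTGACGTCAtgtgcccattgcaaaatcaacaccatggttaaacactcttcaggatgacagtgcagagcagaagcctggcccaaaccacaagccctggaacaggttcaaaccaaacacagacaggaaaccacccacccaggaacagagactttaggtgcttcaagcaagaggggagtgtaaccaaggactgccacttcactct
Snhg18: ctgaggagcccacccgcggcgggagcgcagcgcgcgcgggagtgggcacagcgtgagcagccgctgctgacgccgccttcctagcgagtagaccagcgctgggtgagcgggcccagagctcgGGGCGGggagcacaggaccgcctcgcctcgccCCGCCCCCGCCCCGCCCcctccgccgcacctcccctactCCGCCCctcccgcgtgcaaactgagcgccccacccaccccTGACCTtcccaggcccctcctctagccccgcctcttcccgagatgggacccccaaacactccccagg
Gm32468: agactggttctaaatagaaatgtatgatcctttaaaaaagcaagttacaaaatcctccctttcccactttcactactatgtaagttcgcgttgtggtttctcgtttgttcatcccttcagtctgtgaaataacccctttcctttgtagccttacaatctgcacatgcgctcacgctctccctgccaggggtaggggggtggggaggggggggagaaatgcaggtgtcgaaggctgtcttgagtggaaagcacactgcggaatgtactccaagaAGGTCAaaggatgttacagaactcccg
2310001H17Rik: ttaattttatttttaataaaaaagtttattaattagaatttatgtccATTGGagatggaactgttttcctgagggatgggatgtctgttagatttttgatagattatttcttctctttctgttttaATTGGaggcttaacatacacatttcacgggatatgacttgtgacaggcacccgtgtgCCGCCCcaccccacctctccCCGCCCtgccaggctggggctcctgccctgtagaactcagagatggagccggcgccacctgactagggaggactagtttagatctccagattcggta
Gm36264: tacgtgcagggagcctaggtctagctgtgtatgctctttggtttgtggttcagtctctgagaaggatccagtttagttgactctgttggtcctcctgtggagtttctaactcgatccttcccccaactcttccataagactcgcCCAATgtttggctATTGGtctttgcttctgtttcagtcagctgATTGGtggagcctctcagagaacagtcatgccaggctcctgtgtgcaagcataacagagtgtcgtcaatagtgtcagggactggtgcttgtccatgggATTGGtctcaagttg
Gm31583: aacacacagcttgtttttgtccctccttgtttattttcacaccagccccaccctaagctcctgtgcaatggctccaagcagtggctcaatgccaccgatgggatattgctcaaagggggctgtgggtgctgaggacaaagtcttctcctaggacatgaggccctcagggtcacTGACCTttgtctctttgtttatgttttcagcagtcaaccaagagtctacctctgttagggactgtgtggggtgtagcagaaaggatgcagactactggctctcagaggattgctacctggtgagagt

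The 6 start regions had little in common in these letters. Gm19619 held the cyclic AMP response element at position −151 from its start, and no other of the 7 motifs. Snhg18 held 5 GC boxes and a nuclear receptor half-site at position −17, within a window of 75.3% GC. Gm36264 held 4 CCAAT boxes, and 2310001H17Rik held 2 CCAAT and 2 GC boxes. Gm32468 and Gm31583 each held a single half-site, at positions 23 and −77. Among the 67 members with a RefSeq start region matched by symbol, TATAAA was in 11.9%, CCAAT in 37.3%, GGGCGG in 34.3%, AGGTCA in 22.4%, TTCNNNGAA in 7.46%, CACGTG in 13.4% and TGACGTCA in 5.97%. Among all 32851 start regions of that table, which have the same length, the shares were 13.6%, 37.4%, 35.7%, 16.3%, 8.3%, 7.15% and 1.79%. Median GC content was 53% in the members and 52.7% in all. RefSeq and the count table do not always place the start alike: the RefSeq start lay 345 bases downstream of the table's for Gm19619 and 243 bases downstream for 2310001H17Rik, and at most 77 bases downstream for the other 4. Of the 67 members with a RefSeq start region, 45 had the RefSeq start within 100 bases of the table's. The rest lay farther off, some upstream and some downstream, from −56781 bases (upstream) for 1700080G11Rik to 52322 bases downstream for 4930404H11Rik. The motif shares of the members thus include regions away from the start in the count table. The motif matches are descriptions of the letters only.

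The libraries held between 11591021 and 20399361 counts, of which the 101 members took 0.134%, 0.277% and 0.195% in WT replicates 1, 2 and 3 and 0.26%, 0.18% and 0.272% in KO replicates 4, 5 and 6. Trem2 had 7, 26 and 26 counts in the WT-labelled and 9, 6 and 5 in the KO-labelled libraries, so it does not set WT replicate 1 apart from the KO-labelled libraries, and every direction below is between libraries as labelled. Mitochondrially encoded genes took 8.16%, 12.7% and 10.2% of counts in the WT-labelled and 28%, 9.08% and 19.8% in the KO-labelled libraries. Hepatocyte markers were abundant in every library, at a summed 72370 to 97610 CPM (a gene's count divided by its library's scaled total). Of these 6 markers 5 were fitted lower in KO-labelled livers, 1 of them, Cps1 of the urea cycle, at an unadjusted p under 0.05 (log2 change −1.70, SE 0.60; edgeR adjusted p = 0.513). All 6 Kupffer cell markers had a positive fitted change in KO-labelled livers (summed 78.2 to 111 CPM against 124 to 204 CPM), as were all 6 of sinusoidal endothelium (142 to 165 against 197 to 298 CPM) and 5 of 6 of stellate cells (54.9 to 90.9 against 113 to 259 CPM). Of the 6 markers of each type, 3, 1 and 4 respectively had an unadjusted p under 0.05, and none passed after adjustment. KO replicate 5 stood apart in transcripts of fat and muscle: Adipoq, Plin1 and Lep of adipocytes had 125, 122 and 64 counts there and Myh4 of muscle 192, against 0 to 5 counts in each of the other 5 libraries. In bulk tissue, a change in the number of cells of a type and a change in RNA per cell cannot be told apart, and the part of these markers and of the mitochondrial share in the values below was not tested.

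No member lincRNA passed the threshold between the KO-labelled and WT-labelled livers. With edgeR's quasi-likelihood test and adjustment over all 13693 genes tested, 0 of the 101 members had an adjusted p under 0.05, where 2 of all genes tested (0.0146%) did. An unadjusted p under 0.05 was reached by 12 members (11.9%), beside 1175 of all genes tested (8.58%). Of these 12, 5 were higher in KO-labelled livers (4.95% of members, 5.37% of all genes tested) and 7 were lower (6.93%, beside 3.21%). The ranges of the KO-labelled and WT-labelled values did not overlap for 11 members (10.9%), 5 higher and 6 lower, beside 13.9% of all genes tested, 8.12% higher and 5.73% lower. These shares are near the background, apart from that of lower members at an unadjusted p, and no test of that share was made.

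In the main fit the members as a group did not lean one way. Their median log2 change was −0.01 (quartiles −0.27 and 0.28), next to −0.01 over all genes tested, and 49 of 101 (48.5%, beside 49.1% of all genes tested) were fitted higher. Single members ranged from −1.82 (Gm31583) to 2.03 (Gm42047). Other tools called other numbers: DESeq2 called 1 member, Gm19619 (1.08% of all genes it gave an adjusted p), limma-voom called 0, and limma-voom with sample quality weights called 32 (31.7% of members, 29.7% of all genes tested). The number of members higher at an unadjusted p under 0.05 changed from 5 to 3, 16 or 2 without WT replicate 1, 2 or 3, to 3, 12 or 3 without KO replicate 4, 5 or 6, and to 1 without both WT replicate 1 and KO replicate 4. The number lower stayed between 5 and 10 in the same 7 fits. The median log2 change of the members also moved. It was −0.11, 0.21 or −0.09 without WT replicate 1, 2 or 3. Without KO replicate 4, 5 or 6 it was −0.03, 0.10 or −0.07. With quality weights it was 0.20, and with 1 surrogate variable −0.17. Without KO replicate 5, the library with fat and muscle transcripts, all 12 members kept their direction and 10 kept an unadjusted p under 0.05. With any other single library left out, between 7 and 11 of the 12 kept that p. Without both WT replicate 1 and KO replicate 4, 4 kept it. The 12 were picked by p in these same libraries, so a kept direction is no separate support.

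**Figure D1:**
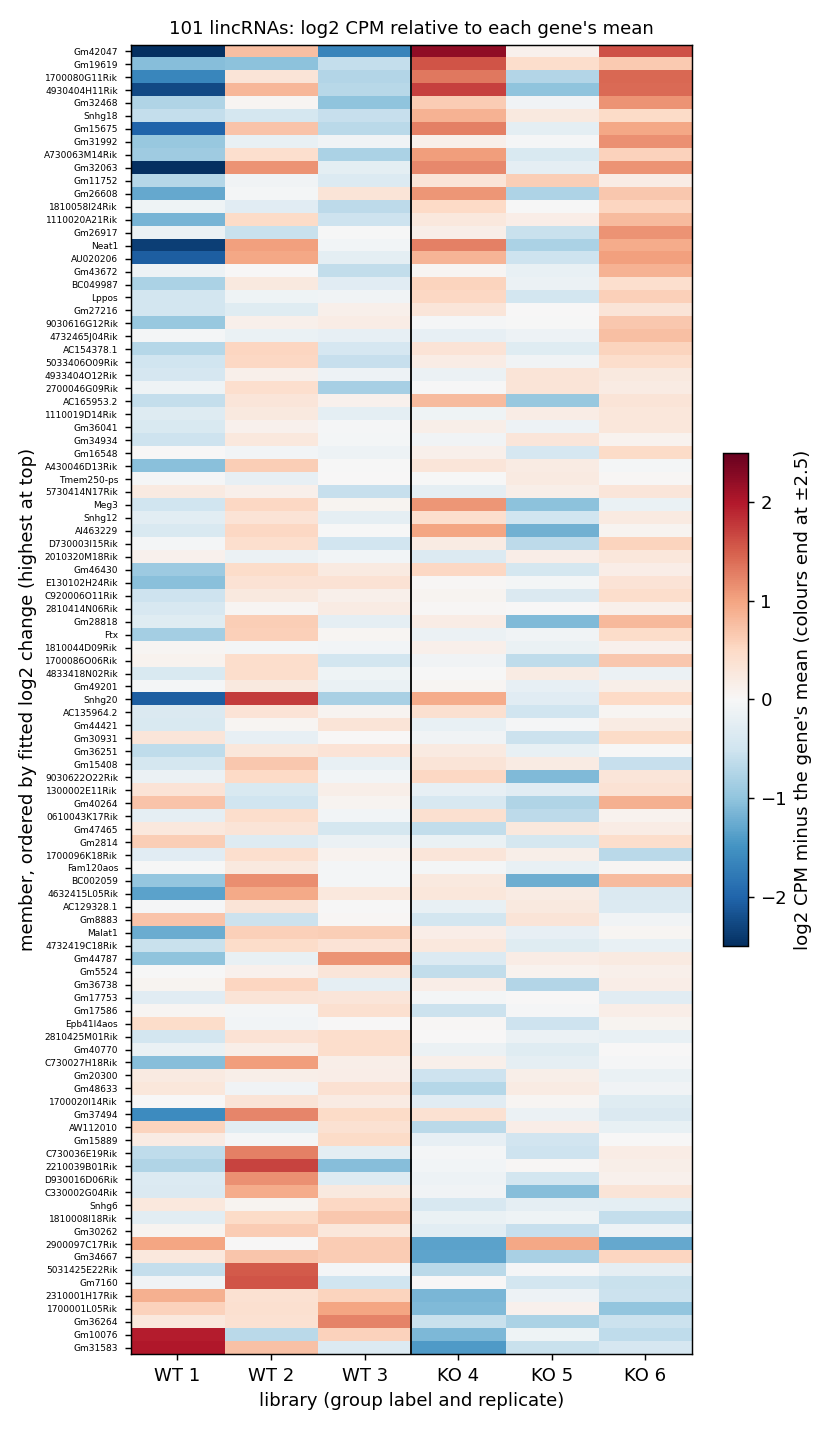
Log2 CPM of each of the 101 lincRNAs in each library, minus that gene's mean over the 6 libraries; genes are ordered by fitted log2 change from 2.03 (Gm42047, top) to −1.82 (Gm31583, bottom), and the line parts WT-labelled from KO-labelled libraries. Most genes show no clean split at the line, and WT replicate 1 is the lowest library for 40 of the 101.

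**Figure D2:**
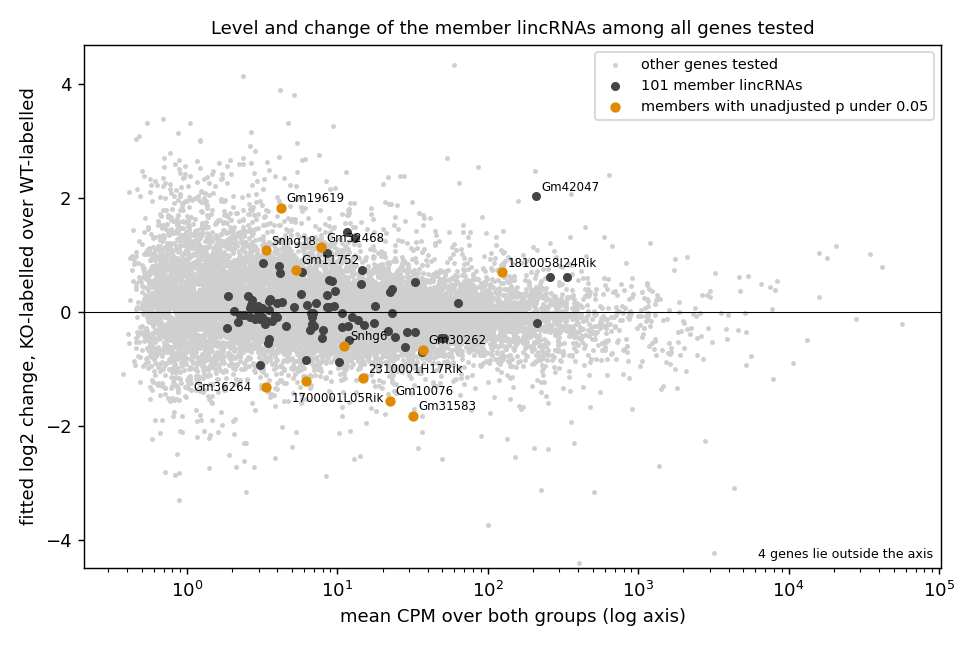
Mean CPM over both groups (log axis) against the fitted log2 change of KO-labelled over WT-labelled livers, for the members (dark), the 12 members with an unadjusted p under 0.05 (orange) and all other genes tested (grey); 4 genes lie outside the axis. The members lie on both sides of 0, among the other genes.

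Among the lincRNAs that were higher, Gm19619, a 6-exon gene with no described role (ENSMUSG00000107198, mm10 chromosome 5, 91257571 to 91283421), had the smallest p. It stood at 1.62, 1.66 and 2.24 CPM in WT replicates 1, 2 and 3 and at 9.99, 4.59 and 5.32 CPM in KO replicates 4, 5 and 6. All 3 KO-labelled values were above all WT-labelled ones, with KO replicate 4 highest. The fitted log2 change was 1.83 (SE 0.39, a 3.56-fold difference), with an edgeR adjusted p of 0.365. Its adjusted p was 0.0118 in DESeq2 and 0.0114 in limma-voom with quality weights, and between 0.0773 and 1 in the other alternatives. The gene rests on 26 to 46 counts per WT-labelled library.

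Snhg18, the host gene of the snoRNA Snord123, was also higher. This gene of 2 exons (ENSMUSG00000096956, chromosome 15, 32240565 to 32244662) stood at 2.06, 2.31 and 2.09 CPM in the WT-labelled and 5.72, 3.71 and 4.33 CPM in the KO-labelled libraries. The WT-labelled values were close together and the groups did not overlap. The log2 change was 1.08 (SE 0.31; edgeR adjusted p = 0.408). Snord123 itself, which lies in an intron of the host on the same strand, had 4 counts over all 6 libraries, so the counts of Snhg18 say nothing of the snoRNA.

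The remaining lincRNAs that were higher at an unadjusted p differed widely in level. 1810058I24Rik (ENSMUSG00000073155, chromosome 6, 35252654 to 35263496), which is known to encode a mitochondrial micropeptide that acts on the Nlrp3 inflammasome in macrophages, stood at 112, 98.2 and 76.7 CPM in the WT-labelled and 171, 119 and 175 CPM in the KO-labelled libraries. The groups did not overlap, though KO replicate 5 lay near WT replicate 1, and the log2 change was 0.70 (SE 0.25; edgeR adjusted p = 0.516). Gm11752 (ENSMUSG00000087404, chromosome 11, 119220160 to 119222473) stood at 3.12, 4.80 and 3.99 CPM against 6.36, 7.78 and 5.78 CPM, again without overlap (log2 change 0.74, SE 0.28; edgeR adjusted p = 0.532). Gm32468 (ENSMUSG00000111013, chromosome 10, 93084206 to 93093727) had 4.05, 7.04 and 3.40 CPM against 10.6, 6.44 and 14.9 CPM. Here KO replicate 5 lay below WT replicate 2, so that the groups overlapped, and the log2 change was 1.14 (SE 0.40; edgeR adjusted p = 0.513).

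Gm31992 on chromosome 10 also had all KO-labelled values above the WT-labelled ones without reaching that p. It had 1.5, 2.56 and 2.72 CPM in the WT-labelled and 3.18, 2.83 and 6.37 CPM in the KO-labelled libraries, with a log2 change of 0.86 (SE 0.44; edgeR adjusted p = 0.625) that was 0.40 without KO replicate 6. The nearest values of the 2 groups, in WT replicate 3 and KO replicate 5, were almost alike.

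Among the lincRNAs that were lower, 2310001H17Rik had the smallest p. This 7-exon gene (ENSMUSG00000097354, chromosome 6, 129208412 to 129238725) stood at 24.6, 17.2 and 19.4 CPM in the WT-labelled and 5.99, 12.1 and 9.13 CPM in the KO-labelled libraries. Every KO-labelled value was below every WT-labelled one, with KO replicate 4 lowest. The log2 change was −1.162 (SE 0.30, a 2.24-fold difference), with an edgeR adjusted p of 0.4.

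Gm36264 (ENSMUSG00000113543, chromosome 13, 9001432 to 9076451) had 3.55, 3.84 and 6.95 CPM in the WT-labelled and 2.0, 1.71 and 2.04 CPM in the KO-labelled libraries. Its KO-labelled values were close together and below all others, and the log2 change was −1.32 (SE 0.37; edgeR adjusted p = 0.4). 1700001L05Rik (ENSMUSG00000075511, chromosome 15, 83353847 to 83367282) had 8.10, 7.17 and 10.8 CPM against 2.54, 5.88 and 2.76 CPM. The groups did not overlap, KO replicate 5 being nearest to the WT-labelled range (log2 change −1.21, SE 0.38; edgeR adjusted p = 0.446).

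Gm31583 had the lowest log2 change of all members, and WT replicate 1 carried much of it. The gene (ENSMUSG00000115919, chromosome 16, 24085083 to 24090089) had 92.4, 38.3 and 18.3 CPM in the WT-labelled and 8.72, 15.8 and 17.4 CPM in the KO-labelled libraries. WT replicate 1 was far above the rest, while WT replicate 3 was barely above KO replicate 6. The log2 change was −1.82 (SE 0.57; edgeR adjusted p = 0.437), and −1.01 without WT replicate 1. Gm10076 (ENSMUSG00000060143, chromosome 14, 105681828 to 105682211) showed the same high value in WT replicate 1, with 65.4, 10.4 and 24.8 CPM against 7.72, 15.5 and 10.8 CPM. Its groups overlapped, since WT replicate 2 was below KO replicates 5 and 6 (log2 change −1.56, SE 0.61; edgeR adjusted p = 0.54; −0.63 without WT replicate 1). The single exon of Gm10076 is 99.5% identical over 383 bases to the transcript of Rpl41, a ribosomal protein gene, so reads of the much more abundant Rpl41 (190.6 and 154 CPM in the WT-labelled and KO-labelled livers, log2 change −0.31, SE 0.42) could have been counted there.

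The other 2 lincRNAs lower at an unadjusted p had small but even differences. Gm30262 (ENSMUSG00000112249, chromosome 10, 111599177 to 111611338), among the most abundant members, had 37.3, 54.9 and 43.0 CPM against 29.5, 23.7 and 32.6 CPM. Snhg6 (ENSMUSG00000098234, chromosome 1, 9941959 to 9944118), host of Snord87, had 13.1, 11.5 and 15.6 CPM against 8.27, 9.36 and 9.13 CPM. Neither gene's groups overlapped. The log2 changes were −0.66 for Gm30262 (SE 0.23; edgeR adjusted p = 0.502) and −0.59 for Snhg6 (SE 0.21; edgeR adjusted p = 0.52). Exons of Snhg6 overlap those of Mcmdc2 on the opposite strand over 11.1% of their bases, but Mcmdc2 was near 0 (0.0376 and 0.131 CPM).

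**Figure D3:**
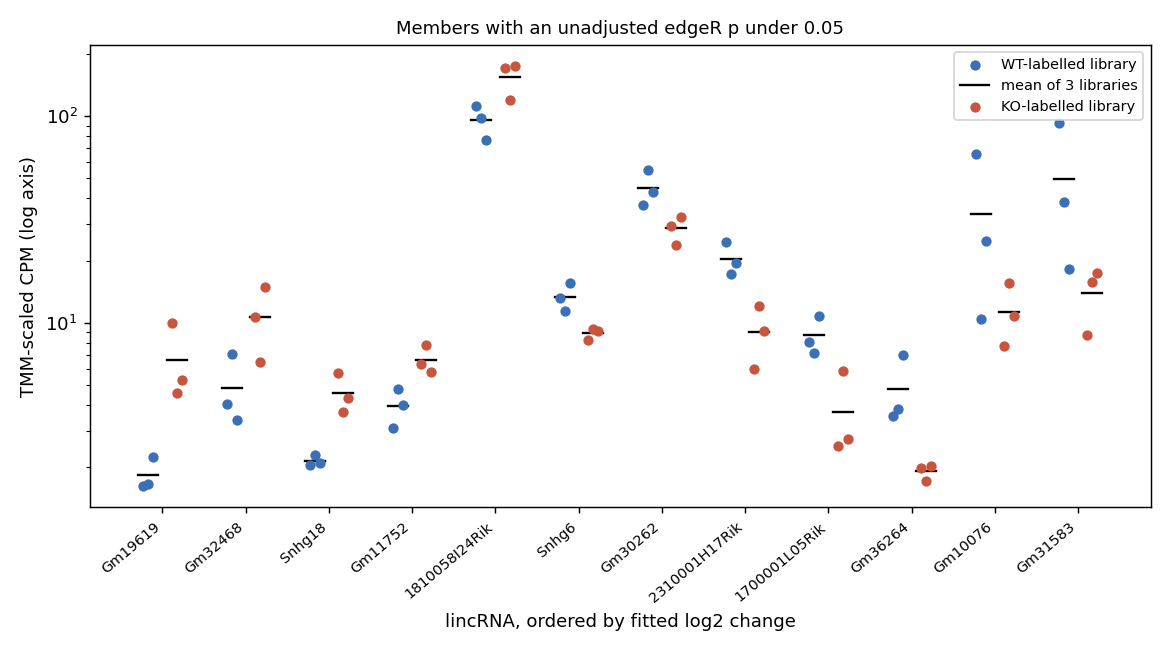
CPM on a log axis of the 12 members with an unadjusted p under 0.05, one point per library and a bar at the mean of the 3 libraries of a group. The groups are apart for 10 of the 12, and overlap for Gm32468 and Gm10076; Gm31583 and Gm10076 have their highest value, 92.4 and 65.4 CPM, in WT replicate 1.

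The lincRNAs of nuclear bodies were abundant and uneven between libraries, and neither passed the threshold between the labelled groups. Neat1, the scaffold of paraspeckles (ENSMUSG00000092274, chromosome 19, 5824708 to 5845478), stood at 37.9, 391 and 185 CPM in the WT-labelled and 460, 112 and 369 CPM in the KO-labelled libraries. Values under 200 CPM occurred in both groups, in WT replicates 1 and 3 and KO replicate 5, and the log2 change was 0.62 (SE 0.79; edgeR adjusted p = 0.797). It was 0.12 without WT replicate 1, 1.49 without WT replicate 2, 0.24 without KO replicate 4 and 1.02 without KO replicate 5. Malat1, a nuclear speckle RNA that lies beside it (ENSMUSG00000092341, chromosome 19, 5795690 to 5802672), stood at 82.8, 295 and 301 CPM against 219, 170 and 203 CPM. WT replicate 1 was lowest and the other WT replicates highest, so that the KO-labelled values lay within the WT-labelled range (log2 change −0.20, SE 0.45; edgeR adjusted p = 0.892).

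No gene encoding a protein of the same bodies passed the threshold in RNA, and no protein was measured here. Of 19 genes of paraspeckle proteins tested, 2 were fitted higher and 17 lower, with a median log2 change of −0.44 beside −0.01 over all genes tested. An unadjusted p under 0.05 was reached by 1 higher and 2 lower genes, and none passed after adjustment. Among the lower ones, named after its values were seen, was the RNA-binding protein Hnrnpa1 (log2 change −0.57, SE 0.24; edgeR adjusted p = 0.569). The higher one was Smarca4, an ATPase of chromatin remodelling, at 54.2, 52.5 and 48.9 CPM in the WT-labelled and 88.7, 96.2 and 99.2 CPM in the KO-labelled libraries (log2 change 0.87, SE 0.18; edgeR adjusted p = 0.365). Of 20 genes of nuclear speckle proteins, 8 were fitted higher and 12 lower, with a median of −0.07. Srsf5, a splicing factor, was the only one of them with an unadjusted p under 0.05 (log2 change −0.85, SE 0.27; edgeR adjusted p = 0.445). Their summed level was 986, 2027 and 1380 CPM in the WT-labelled and 1462, 1059 and 1399 CPM in the KO-labelled libraries, lowest in WT replicate 1 and KO replicate 5, which were also the lowest libraries for Neat1. Of 19 genes of nonsense-mediated decay, the pathway that degrades many snoRNA host transcripts, 0 had an edgeR p under 0.05 even without adjustment.

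Of 20 snoRNA host genes listed, 15 were tested, of which 5 are members; the others, such as Gas5 and Snhg1, carry other types in the annotation or fewer counts. At an unadjusted p under 0.05, 1 of the 15 was higher (Snhg18) and 1 lower (Snhg6), with a median log2 change of −0.02. Snhg12, whose span holds Snora16a, Snora44, Snora61 and Snord99, had 7.73, 11.9 and 7.98 CPM in the WT-labelled and 12.4, 6.62 and 10.8 CPM in the KO-labelled libraries. High and low values were mixed over both groups (log2 change 0.11, SE 0.31; edgeR adjusted p = 0.912). Snhg20 had 3.99, 56.0 and 9.53 CPM against 31.8, 13.7 and 23.6 CPM, with both the lowest and the highest value in WT-labelled livers (log2 change −0.01, SE 0.84; edgeR adjusted p = 0.998). Epb41l4aos, a host of 3 exons, had 14.5, 10.1 and 10.6 CPM against 10.8, 7.41 and 11.1 CPM, with overlapping groups (log2 change −0.27, SE 0.26; edgeR adjusted p = 0.74; −0.0892 without WT replicate 1, −0.10 without KO replicate 5).

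The snoRNAs and microRNAs inside the members were hardly counted. Of those within Snhg6, Snhg12, Snhg20, E130102H24Rik, Ftx and Meg3, each had 0 counts in all 6 libraries. The mature sequences of 3 of the microRNAs are given here from RefSeq, GRCm38.p6, with the seed (bases 2 to 8) in capitals, because their host genes are among the members and the count table is silent on the microRNAs themselves. They come from Snhg20 (exon, chr11:117077370-117077391), E130102H24Rik (exon, chr4:101346957-101346977) and Ftx (intron, chrX:103573112-103573133), each on the strand of its host. Their 3 seeds differ.
mmu-miR-6516-5p: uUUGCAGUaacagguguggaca
mmu-miR-101a-3p: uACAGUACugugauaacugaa
mmu-miR-374b-5p: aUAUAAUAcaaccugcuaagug

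E130102H24Rik, the host of miR-101a, had 1.37, 3.65 and 3.65 CPM in the WT-labelled and 2.91, 2.73 and 3.61 CPM in the KO-labelled libraries. WT replicate 1 stood below the other 5, which were much alike (log2 change 0.09, SE 0.43; edgeR adjusted p = 0.951). Ftx, a lincRNA of the X inactivation centre, had 1.56, 4.29 and 2.92 CPM against 2.54, 2.64 and 3.88 CPM. Its lowest and highest values were both in WT-labelled livers (log2 change 0.05, SE 0.43; edgeR adjusted p = 0.973).

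Meg3, an imprinted lincRNA expressed from the maternal copy, had 1.68, 3.39 and 2.48 CPM in the WT-labelled and 5.09, 1.158 and 2.10 CPM in the KO-labelled libraries. Both extremes were in KO-labelled livers (log2 change 0.12, SE 0.57; edgeR adjusted p = 0.953). It was the member of lowest level per length, at a mean of 0.145 FPKM (a fragment count scaled by transcript length and library size). Of 11 imprinted noncoding RNAs listed, 6 were tested, of which only Meg3 is typed lincRNA. Of the 6, 4 were fitted higher and 2 lower, and 0 had an edgeR p under 0.05 even unadjusted. H19, another imprinted lincRNA, missed the count minimum with 3, 2 and 23 counts in the WT-labelled and 2, 67 and 8 in the KO-labelled libraries. Its highest count was in KO replicate 5, the library with fat and muscle transcripts, whose part in it was not tested.

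1700020I14Rik, the mouse counterpart of the conserved lincRNA Cyrano, had 33.0, 40.9 and 37.5 CPM in the WT-labelled and 26.8, 33.8 and 26.5 CPM in the KO-labelled libraries. Only KO replicate 5 reached the WT-labelled range (log2 change −0.35, SE 0.20; edgeR adjusted p = 0.642). 2900097C17Rik, the mouse counterpart of Norad, was picked out after its values were seen, for its split among KO-labelled livers: 59.6, 30.1 and 46.3 CPM against 11.9, 58.8 and 12.4 CPM. KO replicates 4 and 6 were lowest and KO replicate 5 was next to the highest (log2 change −0.70, SE 0.62; edgeR adjusted p = 0.724). A stretch of 2537 bases of it is 99.2% identical to Gm7292, a lincRNA with next to no counts (mean 0.0081 CPM).

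Ranked by the deposited FPKM, which allow levels to be compared between genes, the members spanned from 0.145 to 100.2 FPKM with a median of 3.96 FPKM, next to 4.07 FPKM for all 10518 genes with at least 20 counts in each library. The 10 highest were Gm26917, AW112010, Gm10076, Gm30262, C730036E19Rik, 1810058I24Rik, Gm42047, Gm48633, Gm27216 and Malat1. By counts, Gm26917, Neat1, Malat1, Gm42047 and 1810058I24Rik together held 50.8% of all counts of the members.

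Gm26917, a single-exon gene of chromosome 17 known for its ribosomal RNA-like sequence, had 86.3, 61.8 and 91.4 FPKM in the WT-labelled and 100.9, 60.6 and 199.9 FPKM in the KO-labelled libraries. KO replicate 6 stood far above the other 5 (log2 change 0.63, SE 0.42; edgeR adjusted p = 0.673), and without it the log2 change was 0.0498. AW112010, an RNA induced in inflammation that is known to encode a peptide in macrophages, had 93.2, 51.0 and 79.0 FPKM against 38.0, 67.2 and 53.6 FPKM. Its groups overlapped, and the fitted direction was lower (log2 change −0.45, SE 0.30; edgeR adjusted p = 0.668; −0.28 without WT replicate 1, −0.26 without KO replicate 4, −0.67 without KO replicate 5). C730036E19Rik had 27.6, 97.8 and 34.8 FPKM against 39.5, 28.1 and 46.7 FPKM, with WT replicate 2 far above the rest (log2 change −0.46, SE 0.48; edgeR adjusted p = 0.752).

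Gm42047 had the highest log2 change of all members and one of the widest spreads. It had 2.58, 34.3 and 6.46 FPKM in the WT-labelled and 93.9, 21.1 and 60.6 FPKM in the KO-labelled libraries. WT replicate 2 was above KO replicate 5, so that the groups overlapped, and the log2 change was 2.03 (SE 0.94; edgeR adjusted p = 0.606), or 3.71 without WT replicate 2. Stretches matching 8 other genes at 97% identity or more cover 95.9% of its transcript, so its reads could have been shared with them. The best of these matches is the lincRNA Gm48362, which had next to no counts (mean 0.0104 CPM).

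Gm48633, whose nearest protein-coding gene is Apob, had 40.6, 30.3 and 41.9 FPKM against 19.4, 36.2 and 30.1 FPKM (log2 change −0.35, SE 0.27; edgeR adjusted p = 0.692; −0.14 without KO replicate 4, −0.58 without KO replicate 5). Gm27216 had 23.6, 25.2 and 34.2 FPKM against 38.3, 30.7 and 38.8 FPKM (log2 change 0.41, SE 0.23; edgeR adjusted p = 0.642). For both, 1 pair of libraries kept the groups from being apart. For Gm48633, WT replicate 2 (30.3 FPKM) was below KO replicate 5 (36.2 FPKM). For Gm27216, WT replicate 3 (34.2 FPKM) was above KO replicate 5 (30.7 FPKM). In FPKM, Malat1 ranged from 12.3 in WT replicate 1 to 42.8 in WT replicate 3, and Gm10076 from 19.8 in KO replicate 4 to 176 in WT replicate 1. Gm30262 ranged from 29.1 in KO replicate 5 to 68.8 in WT replicate 2, and 1810058I24Rik from 27.3 in WT replicate 3 to 62.1 in KO replicate 6.

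At the median, the members varied more between libraries of the same group than other genes did, without matching in count. The part of counting error in this difference was not tested. The SD of log2 CPM within groups had a median of 0.46 over the members and 0.34 over all genes with at least 20 counts in each library. It was widest for Gm32063 (1.59), Gm42047 (1.56), 4930404H11Rik (1.52), Neat1 (1.44) and Snhg20 (1.44), and the highest WT-labelled library exceeded the lowest by 17.3-fold for Gm32063 and 8.5-fold for 4930404H11Rik. It was narrowest for Tmem250-ps (0.12), 1810044D09Rik (0.12) and Fam120aos (0.14), whose highest library exceeded the lowest of all 6 by 1.34-fold, 1.23-fold and 1.36-fold.

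The 5 widest members shared their lowest libraries. For all 5, WT replicate 1 was lowest, and WT replicates 1 and 3 and KO replicate 5 were the 3 lowest libraries. Over all members, 28 of 101 (27.7%) had those 3 libraries lowest, beside 19.7% of all genes tested. WT replicate 1 was the lowest library for 40 members (39.6%, beside 28.9% of all genes tested) and KO replicate 5 for 27 (26.7%, beside 11.3%). WT replicate 2 was the highest for 30 (29.7%, beside 16.9%) and KO replicate 6 for 25 (24.8%, beside 14.9%). The mitochondrial share was likewise lowest in WT replicate 1, KO replicate 5 and WT replicate 3, and its part in this pattern was not tested.

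**Figure D4:**
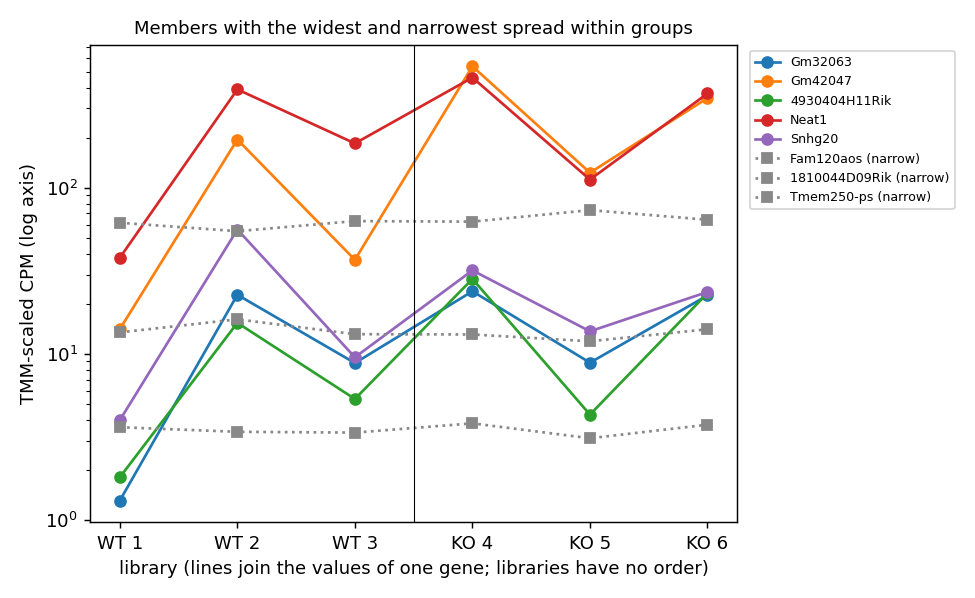
CPM on a log axis in each library of the 5 members with the widest spread within groups (circles, coloured) and the 3 with the narrowest (squares, grey). The coloured genes are all lowest in WT replicate 1 and low again in WT replicate 3 and KO replicate 5, while the grey ones differ by at most 1.36-fold over the 6 libraries.

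The nearest protein-coding gene lay within 5 kb of 49 members and over 100 kb away from 11, with a median distance of 6.12 kb. For 15 members (14.9%) a protein-coding gene started within 1 kb on the opposite strand in the divergent direction, beside 233 of 5458 other lincRNA genes of the table (4.27%); this difference was not tested. The 101 genes lie on 20 chromosomes, with most on chromosome 10 (12 members) and chromosome 1 (10 members).

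Of the neighbours of the 12 members with an unadjusted p under 0.05, 11 were tested, of which 8 had a fitted change of the same sign as the lincRNA and 3 of the opposite sign. Gm30262 is 90.5 kb from Phlda1, a growth-factor-responsive regulator of cell survival, which was lower in the KO-labelled livers as well (162 against 57.6 CPM, log2 change −1.50, SE 0.36; edgeR adjusted p = 0.391). 1810058I24Rik is 4.46 kb from Slc13a4, a sulfate transporter of low level here that was higher (0.806 against 1.95 CPM, log2 change 1.26, SE 0.44; edgeR adjusted p = 0.513). Snhg18 starts 0.15 kb from Sema5a, an axon guidance gene read the other way, whose log2 change was 0.73 (SE 0.55; edgeR adjusted p = 0.687).

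The other neighbours had an unadjusted p above 0.05. Gm19619 is 73.8 kb from Btc, the growth factor betacellulin (log2 change −0.04, SE 0.61), and Gm31583 is 96.2 kb from Bcl6, a transcriptional repressor (−0.07, SE 0.48). 1700001L05Rik is 3.6 kb from Arfgap3, of Golgi transport (−0.06, SE 0.33), and 2310001H17Rik is 21.9 kb from Clec2d, a lectin-like ligand (−0.46, SE 0.48). Gm32468 is 2.59 kb from Cfap54, a cilia gene (0.20, SE 0.49), Gm11752 lies within the span of Tbc1d16 (−0.15, SE 0.28), and Gm10076 is 209.7 kb from Spry2 (0.21, SE 0.42). Gm36264 is 5.35 kb from Gtpbp4, of ribosome assembly, with −0.45 (SE 0.20; edgeR adjusted p = 0.605). Mcmdc2, which overlaps Snhg6, had too few counts to be tested. Beside other abundant members, Ms4a8a, 16.9 kb from AW112010, had a log2 change of 1.15 (SE 0.68), Hmgn3, 93.8 kb from Gm27216, 0.17 (SE 0.52), and Apob, the main lipoprotein scaffold of the liver, 27.6 kb from Gm48633, −0.07 (SE 0.29). Slc16a10, 21.9 kb from Gm31992, was at −0.42 (SE 0.30).

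**Figure D5:**
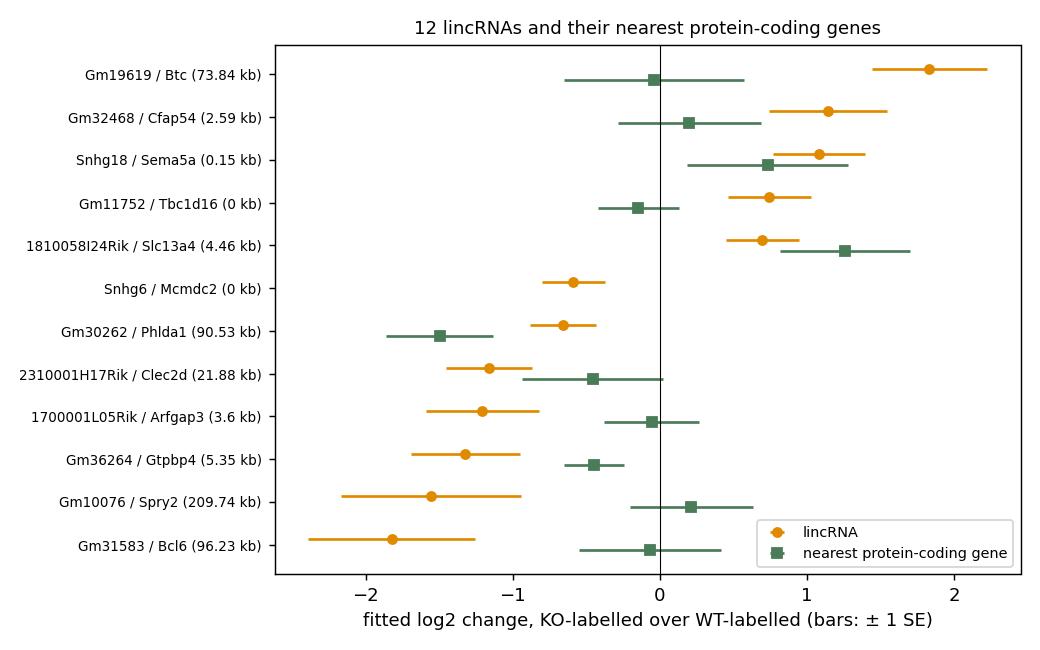
Fitted log2 change of KO-labelled over WT-labelled livers, with 1 SE to each side, for the 12 members (circles) and the nearest protein-coding gene of each (squares), with the distance between the genes in kb. Only Phlda1 and Slc13a4 among the neighbours had an unadjusted p under 0.05, each in the direction of its lincRNA; Mcmdc2 was not tested and has no point.

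The annotation limits what some counts can mean. Of the 101 members, 16 have a single merged exon and 85 have more. Exons of 23 overlap those of another gene, for 5 of them over more than 20% of their bases, among them Gm16548, where 57.1% of exon bases lie opposite Selp and F5, and 2810425M01Rik, where 53.2% lie opposite Fam207a. The sources used here do not state whether the counting used strand, and without strand the reads of such a pair cannot be told apart. A further limit is sequence: 11 members have a stretch of at least 100 bases that is at least 97% identical to another gene's transcript, and 69 members have neither such a stretch nor an exon overlap. Since 0 of the 101 members had an edgeR adjusted p under 0.05, the same holds for those 69 and is no separate check.

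The count minimum itself shapes the group, since a lincRNA close to 0 in either group of livers cannot be a member. Just inside it were 1700086O06Rik, 2700046G09Rik and 2810425M01Rik, each with 20 counts in KO replicate 4, the library with the fewest counts. Just outside were Gm12354 and Gm46516, with a lowest count of 19, and 4632404H12Rik, with 18. A count of 20 has an exact 95% Poisson interval of 12.2 to 30.9, which covers counting error only, and 32 members had a lowest count of 20 to 29. Beyond the members, 179 other lincRNAs were tested. Their log2 changes ranged from −2.23 to 3.14 with a median of 0.05, and 20 of them (11.2%) had an edgeR p under 0.05 without adjustment, 14 higher and 6 lower, of which 0 passed after adjustment.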

How the data were processed

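Bulk RNA of 6 mouse livers was sequenced after Trizol extraction and Illumina TruSeq preparation, per the labels' protocols. The genome build mm10 is named in the submitters' processing notes, as are DESeq2 1.16.1, featureCounts 1.5.0-p3 and HISAT2 2.0.5, without settings. The authors' deposited counts are whole reads per gene. The authors' deposited FPKM served for levels between genes and as an alternative.

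Counts were tested with edgeR 4.0.16 (TMM scaling, filterByExpr, quasi-likelihood test, Benjamini-Hochberg adjustment over 13693 genes) in R 4.3.3. CPM are TMM-scaled, and SE is the log2 change over the square root of F. The biological coefficient of variation was 34.7%. The fit was tested on simulated counts. At an edgeR adjusted p under 0.05 it recovered 8 of 50 genes changed 2-fold and 35 of 50 changed 4-fold. Most 2-fold changes were thus missed there. No library pair agreed within sampling noise. Alternatives were DESeq2 1.42.0, limma 3.58.1 with or without quality weights, other scalings and filters, FPKM with pseudocounts of 1 and 0.1, sva 3.50.0, and libraries left out. Exons came from GENCODE vM21, in which 96 of the 101 spans are identical, and near-identical transcripts from blastn 2.17.0.

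The members and lists were chosen with earlier results of these data known. Members named are those with an unadjusted p under 0.05, groups that do not overlap, one of the 10 highest mean FPKM, a place in a list of known lincRNAs, a count next to the minimum, or one of the 5 widest or 3 narrowest spreads. Nearest protein-coding genes were taken by distance between gene spans in the count table. Some genes that this rule or the lists take are not reported here.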

Additional observations from a re-analysis of the deposited data

How the results depend on the processing

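All 12 members with an unadjusted p under 0.05 kept their direction under the 19 alternatives in which they were refitted. They were picked by their p in the main fit of the same libraries, so this is no separate support. Without WT replicate 1, 2 or 3, an unadjusted edgeR p under 0.05 was kept by 9, 11 or 8 of the 12. Without KO replicate 4, 5 or 6 it was kept by 8, 10 or 7. Without both WT replicate 1 and KO replicate 4 it was kept by 4. The count of members with an adjusted p under 0.05 was 0 in all alternatives except DESeq2 (1) and limma-voom with quality weights (32). Over all genes tested, the count of 2 became 1 with library size alone and with limma-voom, 61 without a count filter, 165 with DESeq2, 4063 with quality weights, 10 with 1 surrogate variable, and 0 without both WT replicate 1 and KO replicate 4. With 1 library left out in turn it lay between 0 and 1.

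The 5 members higher at an unadjusted p became 9 without a count filter, 29 with quality weights, 1 without both WT replicate 1 and KO replicate 4, 9 of 145 lincRNAs with at least 10 counts in each library, 3 of 54 with at least 50, and 10 of 179 with a mean of at least 20. With 1 library left out they lay between 2 and 16. The 7 lower became 15 with quality weights, 14 with 1 surrogate variable, 11 at a mean of at least 20, and 4 of 69 without exon overlap or near-identical copy, an alternative chosen after seeing the data.

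Some members with an unadjusted p above 0.05 changed sign, and the cause was not tested. With quality weights C730036E19Rik was at 0.26, Snhg20 at 1.29 and Meg3 at −0.0473. With limma-voom Malat1 was at 0.0245, Snhg20 at 0.74 and Meg3 at −0.21. On FPKM, Snhg20 was at 0.51 (pseudocount 1) and 0.69 (pseudocount 0.1), and Meg3 at −0.0041 (0.1). With 1 surrogate variable Neat1 was at −0.33, Snhg12 at −0.26, Ftx at −0.21 and Meg3 at −0.67. With library size alone Ftx was at −0.0077. Without both WT replicate 1 and KO replicate 4, Neat1 was at −0.26, Snhg12 at −0.18, Ftx at −0.15, Meg3 at −0.85 and Gm32063 at −0.0065. With 1 library left out, C730036E19Rik ranged from −0.79 to 0.32, Malat1 from −0.60 to 0.0429, Snhg20 from −0.51 to 1.75, Snhg12 from −0.0756 to 0.34, Ftx from −0.25 to 0.42 and Meg3 from −0.64 to 0.50. No paired analysis was possible because the groups share no replicate numbers.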
